A study of Mus musculus with 4 samples.

Results

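These data hold the RNA-seq levels of 100 genes that stood highest in G1E cells carrying GATA-1 2RA. The members are genes with a level in each of the 4 groups, a highest level of 50 or more, and a level in GATA-1 2RA that was 2-fold or more above each of the other 3 groups. Of 2982 genes listed in any of the authors' 6 pairwise tables, 1157 had all 4 levels, 1124 of these reached 50, and 108 met the 2-fold limit. The rule left out 8 of the 108 by name, namely Ccnd1, Srgn, Meis1, P2rx1, Jun, Fli1, Plek and Csf2rb2, and 100 members remained. The members were thus chosen by these levels, and the height of GATA-1 2RA over the other groups is a description here that was not tested. By the same rule 218 genes stood highest in GATA-1 WT, 81 in the G1E control and 71 in GATA-1 V205M.

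G1E is a mouse erythroblast line that lacks GATA-1, and all 4 samples were G1E cells under β-estradiol induction. The groups were the control line, the line with GATA-1 WT, the line with GATA-1 2RA and the line with GATA-1 V205M, with 1 sample each, called control, WT, 2RA and V205M cells below. The labels do not say which residues 2RA changes, how the GATA-1 forms were introduced, or whether a line is a single clone, and V205M is known as a change that weakens the contact with the cofactor FOG-1. With 1 sample a group, no difference has a replicate check, no p-value is given for a difference, and the authors' lists are quoted as deposited.

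GATA-1 is the zinc finger transcription factor that switches on the red cell program and, in the same progenitors, holds down genes of other blood lineages. Many genes used by myeloid and lymphoid cells are expressed at a low level in early progenitors and are silenced as red cells mature. Adaptors and kinases such as Blnk, Btk, Lyn, Lcp2 and Lat carry signals from immune receptors at the membrane to calcium release and to the actin cytoskeleton, which leukocytes use for adhesion and movement.

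A level is a group's read count divided by the authors' size factor and is called scaled reads below. The G1E control and V205M cells each turned out to be the mean of 2 count columns, WT cells and 2RA cells 1 column each, and the reads over the listed genes ranged from 276064 to 2178397 a column. Gata1 itself stood at 153 scaled reads in the G1E control, 2652 in WT cells, 1421 in 2RA cells and 613 in V205M cells. Of 39 red cell markers, 25 had all 4 levels, and their summed level was 7125 in the control, 79995 in WT cells, 8009 in 2RA cells and 6563 in V205M cells. The log2 ratio between the 2 columns had an SD of 0.130 in the control and 0.102 in V205M cells, over genes reaching 500 reads. Every fold below is a ratio of levels, and its 95% counting interval covers counting error of the pooled reads only. In these bulk samples fewer cells of a type and less RNA per cell cannot be told apart.

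The members with the widest gap were nearly silent outside 2RA cells. Fgl2, which encodes a fibrinogen-like protein with prothrombinase activity, stood at 233 scaled reads in 2RA cells, against 1.83 in the G1E control, 3.15 in WT cells and 1.43 in V205M cells. Blnk, the B cell linker adaptor, stood at 115 in 2RA cells, 1.83 in the control, 0.63 in WT cells and 0.931 in V205M cells. The 3 lower values of Blnk each rest on 1 read per count column. Hoxc10, a homeobox transcription factor, stood at 104, 1.83, 1.26 and 2.79 in the same order. Ptprc, the leukocyte phosphatase CD45, stood at 68.6, 3.23, 0.63 and 0.931. For these 4 genes 2RA cells stood apart and the other 3 groups lay within a few reads of each other. The ratio to the highest other group was 74 for Fgl2, 62.9 for Blnk, 37.4 for Hoxc10 and 21.3 for Ptprc. For Fgl2 against WT cells, at 5 reads, the interval of this ratio ran from 31.4 to 229. For Blnk against the control it ran from 23.9 to 730.3. The lowest count in every column was 1, and the sources used here do not say whether a 1 was added throughout or genes without reads were dropped. Ratios to 1 to 3 reads therefore hold for the deposited counts only, and 12 members have 3 or fewer reads in at least 1 of the other groups.

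The promoters of Fgl2, Blnk, Itgb7 and Pros1 are shown because these genes are among the 25 with the widest gap, and because they differ in whether a GATA word lies near the start site. Each is the 250 bases before the RefSeq start site in GRCm38.p6, 5′ to 3′ on the strand of the gene. Capitals mark a match to a GATA word (AGATAA and the variant AGATAG, or TGATAA and the variant TGATAG) or to the AP-1 word TGACTCA, on either strand. Fgl2 lies on the plus strand at chr5:21372423-21372672, Blnk on the minus strand at chr19:40994222-40994471, Itgb7 on the minus strand at chr15:102231936-102232185 and Pros1 on the plus strand at chr16:62854057-62854306.
Fgl2: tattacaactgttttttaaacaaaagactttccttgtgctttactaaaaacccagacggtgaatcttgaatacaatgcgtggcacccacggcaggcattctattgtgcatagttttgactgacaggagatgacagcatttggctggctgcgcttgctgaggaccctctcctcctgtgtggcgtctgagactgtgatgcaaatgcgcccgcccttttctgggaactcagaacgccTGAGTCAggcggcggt
Blnk: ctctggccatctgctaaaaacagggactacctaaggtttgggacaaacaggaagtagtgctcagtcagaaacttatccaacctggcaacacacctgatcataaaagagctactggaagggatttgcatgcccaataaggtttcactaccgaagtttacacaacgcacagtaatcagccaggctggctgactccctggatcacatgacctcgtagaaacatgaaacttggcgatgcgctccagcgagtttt
Itgb7: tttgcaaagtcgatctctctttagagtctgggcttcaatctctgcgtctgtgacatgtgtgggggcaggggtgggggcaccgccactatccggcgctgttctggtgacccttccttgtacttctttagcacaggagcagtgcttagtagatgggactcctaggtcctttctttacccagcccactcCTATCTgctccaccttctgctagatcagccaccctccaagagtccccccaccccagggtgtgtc
Pros1: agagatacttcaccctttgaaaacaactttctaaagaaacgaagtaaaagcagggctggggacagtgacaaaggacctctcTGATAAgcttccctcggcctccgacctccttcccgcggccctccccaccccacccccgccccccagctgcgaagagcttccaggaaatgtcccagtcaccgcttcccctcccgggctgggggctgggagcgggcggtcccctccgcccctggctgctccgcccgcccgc
Fgl2 holds TGAGTCA, the AP-1 word read on the other strand, with its bases at -16 to -10 from the start site. Itgb7, the integrin β7 subunit, holds CTATCT, which is AGATAG on the other strand, at -64 to -59, and Pros1, the anticoagulant protein S, holds TGATAA at -169 to -164. Blnk holds none of the words searched in this window. Over 300-base windows from 250 before to 50 after the start, RefSeq held 112 promoters of 77 members and 32851 promoters of all genes. A GATA word lay in 20.5% (95% exact binomial interval 13.5 to 29.2) of the member promoters and in 29.8% of all promoters. The ETS word GAGGAA lay in 33.9% (25.3 to 43.5) and in 28.3%, and the ETS word CCGGAA in 11.6% (6.33 to 19.03) and in 14.9%. The RUNX word TGTGGT lay in 10.7% (5.66 to 17.97) and in 16.8%, and the AP-1 word TGACTCA in 5.36% (1.99 to 11.3) and in 5.20%. All words were searched on both strands, none of the words of different factors contains another, and a match is a run of letters, not a shown binding site. The interval of the GATA share ended just below the share of all promoters, and the 4 other intervals held that share. On the strand of the gene alone the GATA interval held it too, at 12.5% (7.01 to 20.1) and 17%, whereas the RUNX interval then ended just below it, at 3.57% (0.98 to 8.89) and 8.99%. Which interval ends below the share of all promoters thus depends on the strands searched. Promoters of 1 gene can overlap, so these intervals, which count each promoter once, are too narrow.

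**Figure D1:**
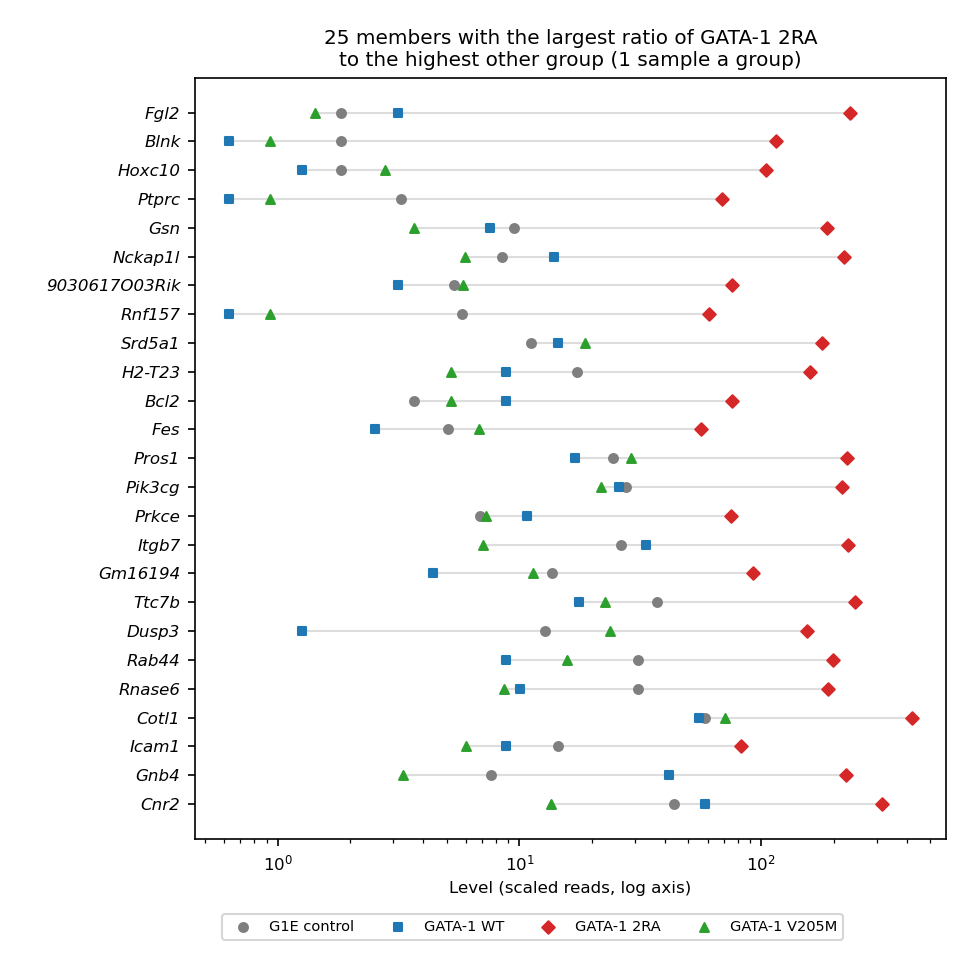
Levels in scaled reads (horizontal log axis) of the 25 members with the largest ratio of 2RA cells to the highest other group, 1 point per group and gene, 1 sample a group and no error bars. The 2RA points lie to the right of the other 3 groups in every row because the rule requires it, with a ratio from 74 in Fgl2 at the top to 5.37 in Cnr2 at the bottom.

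The plot of the 25 widest members shows that the gap narrows quickly down the list. The ratio to the highest other group was 10 or more in 8 members, 5 or more in 29 and 3 or more in 51, while 37 members lay under 2.5. Just inside the 2-fold limit were Lphn1 at 2.04, Acadl at 2.04 and Fnbp1 at 2.07. Just outside were Rgs19 at 1.98, Tsc22d1 at 1.97 and Cep250 at 1.89. At the lower limit on the level, Tiam1 with 54.3, Fes with 56.4 and Lat with 57.9 scaled reads in 2RA cells were the lowest members. Another 5 genes met the 2-fold limit with a highest level under 50, among them Zfp870, Cap2 and Cd300lh at 49.3, 48.6 and 48.6. When each count column of the control and of V205M cells was taken alone, 90 of the 100 members stood 2-fold or more above every column.

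The rule used the 3 comparisons with 2RA cells, so their counts are descriptions. By the authors' lists, 91 members were listed as higher in 2RA cells than in the G1E control, where 4.86% of 12931 tested genes were so listed. Against WT cells 95 members were listed as higher (3.33% of tested genes), and against V205M cells all 100 were (3.6%). No member was listed as lower in these tables (2.61%, 4.04% and 2.62% of tested genes). The median log2 difference of the members was 1.98 against the control, 2.30 against WT cells and 2.89 against V205M cells. All 3 tables listed 89 of the members, 2 tables listed 8 and 1 table listed 3.

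Between the other 3 groups, 51 of the 100 members were listed in none of the 3 tables. This was not counted over the other genes, so it describes the members only. The rule capped these levels but did not set them against each other. In WT cells against the control, 10 members were listed as higher and 17 as lower, where 8.17% and 4.86% of tested genes were. In V205M cells against the control 5 were listed as higher and 27 as lower (4.83% and 3.32% of tested genes). In V205M cells against WT cells 6 were higher and 17 lower (3.7% and 5.65%). The counts of higher members were near these shares of all tested genes. The tested genes include many that were never listed, and the 1024 other genes with 4 levels and a highest level of 50 or more give a second background. Of those, 53.3% were listed as higher and 27.4% as lower in WT cells than in the control, and their median log2 difference was 1.20, while that of the members was -0.25. In V205M cells against the control 34.1% of them were listed as higher and 22.1% as lower, so that the 27 lower members were near this share, with a median of 0.31 and, for the members, of -0.33. In V205M cells against WT cells 24.9% were higher and 40.9% lower, and the medians were -0.49 and -0.07. A gene has a level in a group only where a table that includes the group lists it. The members can have all 4 levels through the tables with 2RA cells alone, and other genes through the remaining tables, so the listed shares and medians of the 1024 genes depend in part on how they came to have levels, and nothing particular to the members is read from them. These 3 comparisons share samples with each other. With levels rescaled by median ratios over the 1157 genes, the members' median in the last comparison turned to 0.42. The highest of the other 3 groups was the control in 48 members, WT cells in 26 and V205M cells in 26. The lowest was WT cells in 41, V205M cells in 39 and the control in 20. The ratio of the highest to the lowest of these 3 groups had a median of 2.44, was under 2 in 36 members and reached 5 in 23.

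**Figure D2:**
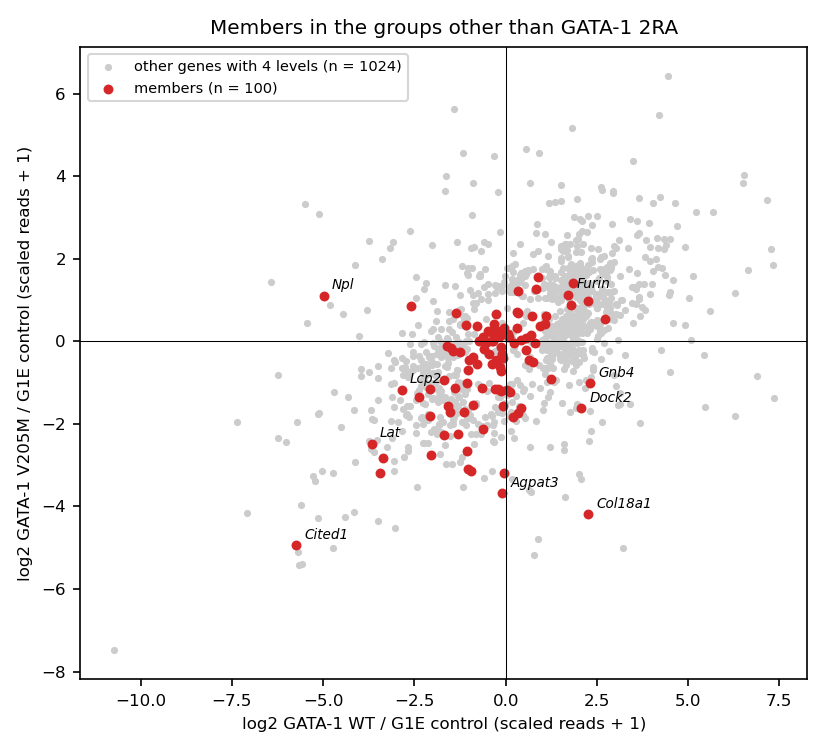
Log2 ratio of WT cells to the G1E control (horizontal axis) and of V205M cells to the control (vertical axis), in scaled reads plus 1, for the 100 members (red) and 1024 other genes (grey). The members have medians of -0.25 and -0.33 and the other genes of 1.20 and 0.31, and both axes share the control sample. These medians depend in part on how genes came to have levels, and nothing particular to the members is read from them.

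The members that did differ among the other groups fell into a few patterns. The other genes were not counted by such joint patterns, so the counts below are descriptions of the members. V205M cells were listed as lower than both the control and WT cells in 12 members, which include Col18a1, Itgb7, the cannabinoid receptor Cnr2, the long noncoding RNA Neat1 and the sphingosine phosphate exporter Spns2. Spns2 stood at 485 scaled reads in 2RA cells, 189.5 in the control, 182 in WT cells and 19.9 in V205M cells, so 3 groups were high and V205M was low. Both WT cells and V205M cells were listed as lower than the control in 7 members without a listed difference between them, namely Zyx, Man2b1, Frmpd1, Atp2a3, Cited1, Lat and Dok2. Cited1, a transcriptional coregulator, stood at 257 in 2RA cells and 86.1 in the control, but at 0.63 in WT cells and 1.86 in V205M cells. WT cells were at 1 read there, and the ratio of the control to WT cells was 137 (interval 22.8 to 5141). WT cells were listed as higher than the control, and V205M cells as lower than WT cells, in Gnb4, Dock2, Elf1, Plekha2 and Col18a1. Furin, the protease that cleaves proproteins in the secretory pathway, was listed as higher than the control in both. The next 3 genes were singled out after their values were seen. Col18a1, a basement membrane collagen, stood at 777 in 2RA cells and 321 in WT cells, at 66.6 in the control and at 2.72 in V205M cells, so that WT exceeded V205M cells by a ratio of 118 (52.8 to 317). Npl, a lyase of sialic acid breakdown, showed the opposite order, with 398 in 2RA cells, 110.2 in V205M cells, 50.7 in the control and 0.63 from 1 read in WT cells. Agpat3, a phospholipid acyltransferase, stood at 80, 23.6 and 22 in 2RA cells, the control and WT cells, and at 0.931 in V205M cells, from 1 read in each column.

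**Figure D3:**
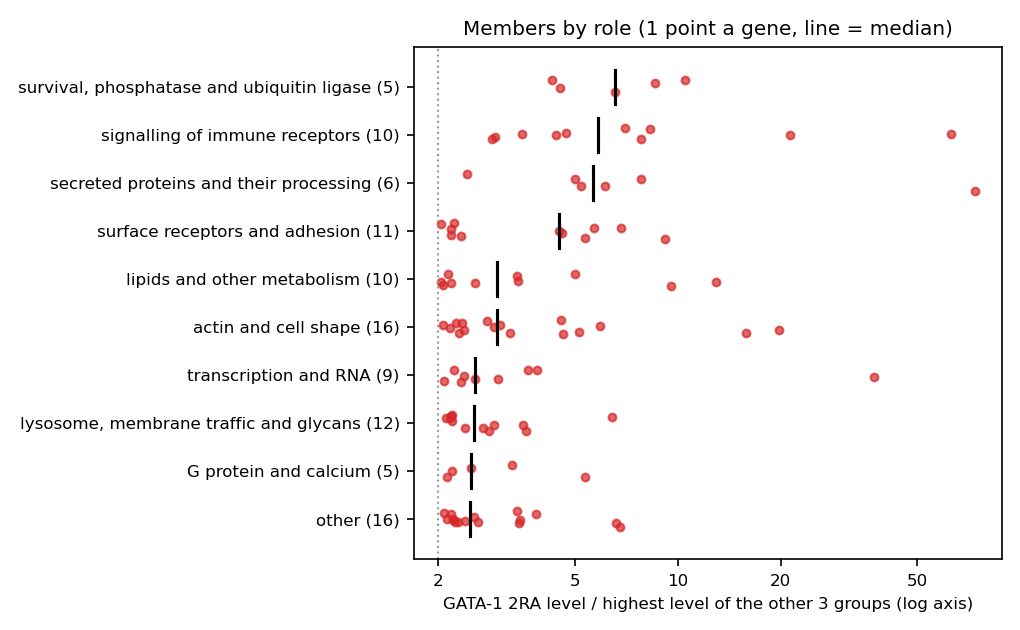
Ratio of the 2RA level to the highest of the other 3 groups (horizontal log axis) for each of the 100 members, 1 point a gene, in 10 roles with the number of members in brackets, a black line at each median and a dotted line at the 2-fold limit. Medians run from 6.54 in the 5 genes of survival, phosphatase and ubiquitin ligase to 2.47 in the 16 other genes, and each role of 6 or more genes has members close to 2.5 or below, except signalling of immune receptors.

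Sorted by what their proteins do, the members were spread over 10 roles, assigned by hand with the members known. Receptors and adhesion molecules at the surface numbered 11, with a median ratio of 4.50. The widest was H2-T23, a nonclassical MHC class I molecule, with 159 scaled reads in 2RA cells, 17.3 in the control, 8.82 in WT cells and 5.22 in V205M cells. It belongs to a family of near-identical genes, so its counts are uncertain where reads could be split. Itgb7 stood at 228, 26.2, 33.4 and 7.09 in the same order. Icam1, a ligand of leukocyte integrins, stood at 82.2, 14.4, 8.82 and 6.01, and Cnr2 at 314, 43.6, 58.6 and 13.5. In H2-T23, Itgb7, Icam1 and Cnr2, V205M cells were the lowest group. Of the 11 surface genes 5 were listed as lower in V205M cells than in the control, and none as higher. By comparison 27 of the 100 members, 22.1% of the 1024 other genes and 3.32% of tested genes were lower. The interleukin-4 receptor chain Il4ra was among the 5 surface genes, and its 2 V205M columns differed, at 0.859 and 11. The prostacyclin receptor Ptgir, the inhibitory receptor Havcr2, the semaphorin receptor Plxnc1, the adrenergic receptor Adra2a, the TGF-β receptor Tgfbr1 and the latrophilin Lphn1 had ratios from 2.04 to 4.50.

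Signalling behind immune receptors was the role of 10 members, with ratios from 2.87 to 62.9 and a median of 5.86. Btk, the Tec family kinase that acts with Blnk, stood at 497 scaled reads in 2RA cells, 105 in the control, 95.7 in WT cells and 63.4 in V205M cells. Lyn, the Src family kinase upstream of it, stood at 294, 17.9, 66.8 and 49.2 in the same order. The adaptor Lcp2 stood at 276, 79, 10.1 and 34.5. Btk differed by less than 2-fold outside 2RA cells, Lyn was lowest in the control, and Lcp2 was lowest in WT cells. The adaptor Dok2, an inhibitor of tyrosine kinase signalling, stood at 229 in 2RA cells, 79.9 in the control, 6.93 in WT cells and 10.4 in V205M cells. The adaptor Lat was at 19.8 in the control and at 0.63, from 1 read, in WT cells. Pik3cg, the gamma catalytic subunit of a lipid kinase, stood at 216 in 2RA cells and between 21.7 and 27.7 in the others, a fold of 7.79 (5.66 to 11.1) against the control. The kinases Fes and Prkce had folds of 8.30 against V205M cells (4.65 to 15.2) and 7.01 against WT cells (4.17 to 12.5), each against its highest other group. A list of 42 genes of B cell receptor and immune adaptor signalling held 6 of the members. 2RA cells were listed as higher in 8 and lower in 1 against the control, higher in 6 and lower in 0 against WT cells, and higher in 9 and lower in 0 against V205M cells. The medians of the listed genes were 2.01, 3.83 and 2.95, against 1.23, -1.07 and 1.18 over all genes listed in the same tables. Among those outside the members, the kinase subunit Pik3cd stood at 85 in 2RA cells and 20.3 in the control, the adaptor Dapp1 at 1327 and 424. The phosphatase Ptpn6 was listed as lower, at 56.4 and 148. Neither Pik3cd, Dapp1 nor Ptpn6 was listed between 2RA and WT cells. The list was written with earlier results of these data known and includes members by design. For all listed genes the shares higher in 2RA cells were 65.1%, 45.2% and 57.9% in the same comparisons.

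**Figure D4:**
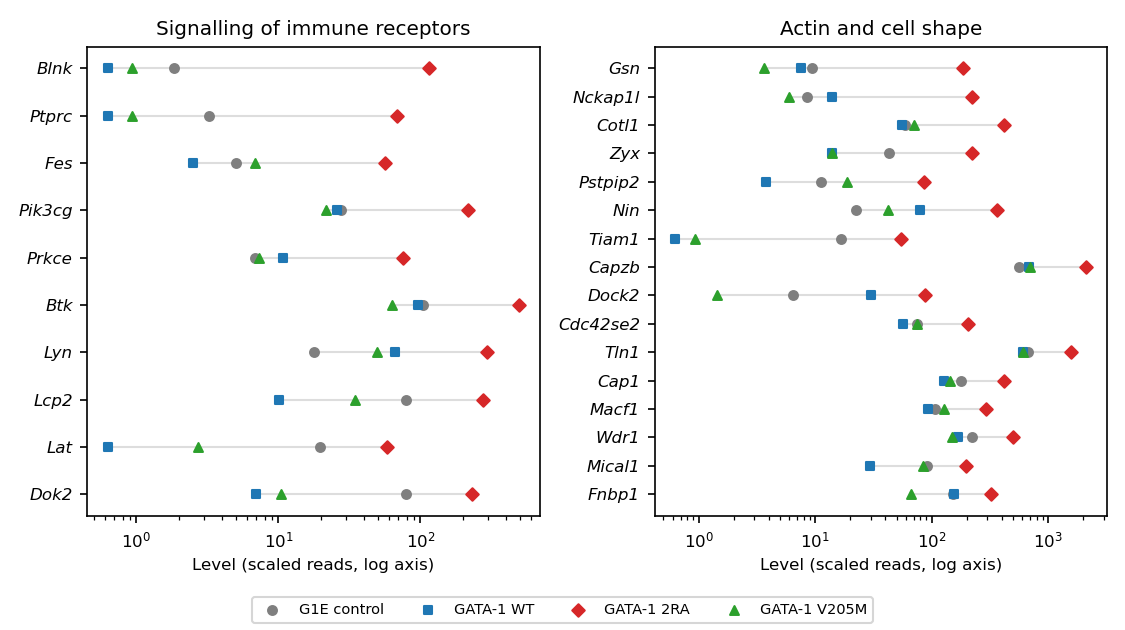
Levels in scaled reads (horizontal log axes) of the 10 members that signal behind immune receptors (left) and the 16 that act on actin and cell shape (right), 1 point per group and gene, 1 sample a group. On the left the other 3 groups are spread widely in Lat, Lcp2 and Dok2, and on the right Capzb, Tln1, Cap1, Macf1 and Wdr1 have the other 3 groups close together.

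Genes of actin and cell shape were the largest named role, with 16 members and a median ratio of 2.97. Gsn, the filament-severing protein gelsolin, stood at 187 scaled reads in 2RA cells, 9.45 in the control, 7.56 in WT cells and 3.65 in V205M cells. Nckap1l, the blood cell subunit of the WAVE complex that starts branched actin, stood at 220.0, 8.48, 13.9 and 5.94. Cotl1, a coactosin-like actin binder, stood at 419, 58.6, 55.4 and 70.8. Gsn and Nckap1l were low in all 3 other groups, whereas Cotl1 had a clear level in each of them. Capzb, the β subunit of the capping protein of filament ends, stood at 2123, 557, 688 and 701, and Tln1, the integrin activator talin, at 1576, 665, 608 and 602. Wdr1, which helps cofilin to disassemble filaments, stood at 495, 219.8, 169 and 149.9. In these 3 abundant genes the other groups were within 1.5-fold of each other, and the folds against WT cells were 3.08 (2.88 to 3.31), 2.59 (2.40 to 2.80) and 2.92 (2.53 to 3.38). The focal adhesion protein Zyx, the F-BAR proteins Pstpip2 and Fnbp1, the Rac activators Tiam1 and Dock2, the centrosome protein Nin, the crosslinker Macf1, Cap1, Mical1 and Cdc42se2 made up the rest. Dock2 was at 30.2 in WT cells and at 1.43, from 3 reads, in V205M cells, and its 2 control columns were 1.71 and 11.2. Nin also differed between the control columns, at 33.4 and 11.2. A list of 50 integrins and actin regulators of blood cells, 4 of them members, was listed as higher in 2RA cells in 9 genes against the control, 6 against WT cells and 11 against V205M cells, and lower in 0. Their medians were 3.58, 2.5 and 2.74, against 1.23, -1.07 and 1.18 over all genes listed in these comparisons. Of all those listed genes, 65.1%, 45.2% and 57.9% were higher. The 4 members were chosen as higher, and Plek, also on the list, met the same limits before it was left out by name. These counts and medians were thus set in part by the rule. Outside the members the list held Plekho2 at 993 in 2RA cells and 31.7 in the control and the leukocyte integrin subunit Itgb2 at 729 and 47.3. In V205M cells they stood at 287 and 95.3, and neither was listed between 2RA and WT cells.

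In G protein or calcium signalling there were 5 members, with a median ratio of 2.49. Gnb4, a β subunit of heterotrimeric G proteins, stood at 224 scaled reads in 2RA cells, 7.62 in the control, 41.6 in WT cells and 3.29 in V205M cells. Calm2, which encodes a calcium sensor, stood at 804, 379, 316 and 277. Atp2a3, a calcium pump of the endoplasmic reticulum, stood at 251, 76.3, 17.6 and 10.5. The order of the other groups differed from gene to gene, since Gnb4 was next highest in WT cells, and Calm2 and Atp2a3 in the control. Per kilobase of exon, Gm15720 and Gm7308 were among the members with the highest levels in 2RA cells, at 1064 and 925 scaled reads per kb. Laptm5, Capzb and Calm2 followed with 796, 643 and 548. In a list of 42 G protein subunits and regulators, 2RA cells were listed as higher in 2 genes and lower in 1 against the control, higher in 3 and lower in 3 against WT cells, and higher in 4 and lower in 1 against V205M cells. Gnb4 was the only member on it, and Gng2 at 163 and 65.8 was the other gene higher than in the control. Of all genes listed in these comparisons, 65.1%, 45.2% and 57.9% were higher in 2RA cells.

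Secreted proteins and the enzymes that process them numbered 6, with a median ratio of 5.67. Pros1 stood at 226 scaled reads in 2RA cells, 24.3 in the control, 17 in WT cells and 29.1 in V205M cells. Furin stood at 1222, 70.3, 234 and 155, and Rnase6, a secreted ribonuclease, at 189, 30.9, 10.1 and 8.66. Pros1 was low in all of the others, Furin was lowest in the control, and Rnase6 was next highest there. Cpz, a secreted carboxypeptidase, was 5.01-fold above its highest other group, the control, with an interval of 3.95 to 8.18.

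The lysosome, membrane traffic and sugar chains were the role of 12 members, with a median ratio of 2.54. Laptm5, a lysosomal membrane protein of blood cells, stood at 3013 scaled reads in 2RA cells, 1263 in the control, 448 in WT cells and 1133 in V205M cells. Man2b1, the lysosomal α-mannosidase, stood at 930.2, 263, 126 and 129.8, and Rab44, a Rab family GTPase, at 199, 30.9, 8.82 and 15.7. In all 3 WT cells were the lowest group, with V205M cells close to it in Man2b1, and 5 of the 12 were listed as lower in WT cells than in the control while 1 was higher, where 17 of the 100 members, 27.4% of the 1024 other genes and 4.86% of tested genes were lower. Pgm1, a phosphoglucomutase by its symbol, stood at 907, 151, 323 and 231. Its symbol has been swapped between genes across annotation releases, so it was not placed on the genome. Snx6, a sorting nexin, stood at 469, 136, 112 and 214. The hydrolases Ctsa and Ppt1, the pump Atp13a2, the glycosyltransferase Galnt7, Uap1l1 and 9030624J02Rik (now Vps35l) had ratios from 2.11 to 2.91.

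Enzymes and carriers of lipids and other metabolites numbered 10, with a median ratio of 2.97. The widest was 9030617O03Rik (now Dglucy, a D-glutamate cyclase), with 75.7 scaled reads in 2RA cells, 5.37 in the control, 3.15 in WT cells and 5.87 in V205M cells. Its V205M columns were 1.72 and 10.017. Srd5a1, a steroid reductase, stood at 178, 11.2, 14.5 and 18.6, so its other 3 groups were within 2-fold of each other. Inpp5b, an inositol phosphatase, stood at 1199, 349.7, 335 and 262. Abcc1, an export pump of conjugated compounds, stood at 734, 208, 337 and 232. Acadl, which oxidises long fatty acids, stood at 336, 101, 125 and 165. V205M cells were listed as lower than the control in 4 of the 10, namely Pafah2, Agpat3, Spns2 and Mboat7, and higher in 0, against the same shares as for the surface genes. With so few genes in a role, these counts are descriptions.

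Transcription factors and RNA regulators numbered 9, with a median ratio of 2.56. Neat1, the long RNA on which paraspeckles form, stood at 1145 scaled reads in 2RA cells, 288 in the control, 312 in WT cells and 122 in V205M cells. Elf1, an Ets family factor of blood cells, stood at 638, 119.7, 287 and 63.3, and the zinc finger gene Zfp217 at 631, 159, 265 and 243. Neat1 and Elf1 were lowest in V205M cells and Zfp217 in the control. The RNA-binding protein gene Celf2, the eye and brain factor Pax6, 6430527G18Rik (now Irf2bpl) and the SMAD repressor Ski had ratios from 2.08 to 3.89. Hoxc10 was the only Hox gene among the members, and 166 of its exon bases (8.70%) are shared with Hoxc5 on the same strand. Hoxc5, Hoxc4 and Hoxc8 of the same cluster were listed as lower in 2RA cells than in the control. Hoxc5 stood at 45 in 2RA cells and 148 in the control, Hoxc4 at 10.002 and 64.3, and Hoxc8 at 27.1 and 107. In the list of 41 Hox genes and partners these 3 were the ones lower than in the control, and Hoxc10 and Meis1 the 2 that were higher. Against WT cells the list had 3 genes higher and 0 lower, with Hoxc8 among the higher at 27.1 in 2RA cells and 1.89 in WT cells. Against V205M cells it had 2 higher and 2 lower, the lower ones being Hoxc5 and Hoxc4. Tgfbr1 and Ski were the members on a list of 37 genes of TGF-β and BMP signalling. It had 5 genes listed as higher in 2RA cells in each comparison, with 0, 0 and 1 lower against the control, WT cells and V205M cells. Tgfbr1 and Ski were among the higher genes each time because the rule requires it. Over all listed genes 65.1%, 45.2% and 57.9% were higher in the same comparisons. Tsc22d1, an early TGF-β target, stood at 1732 in 2RA cells, 62.7 in the control, 879 in WT cells and 167 in V205M cells.

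The 5 genes of survival, phosphatase and ubiquitin ligase had the highest median ratio of any role, 6.54. Rnf157, a ubiquitin ligase, stood at 60.7 scaled reads in 2RA cells, 5.80 in the control, 0.63 in WT cells and 0.931 in V205M cells. Bcl2, which protects cells from apoptosis, stood at 75.7, 3.65, 8.82 and 5.22, and Dusp3, a dual-specificity phosphatase, at 155, 12.8, 1.26 and 23.7. Bcl2 was next highest in WT cells, where Rnf157 and Dusp3 had 1 and 2 reads. The ligases Rnf43 and Rnf19b had ratios of 4.55 and 4.29. The 16 members without a shared role ran from Gm7308 at 2.07 to Gm16194 at 6.77, with Ttc7b at 6.61. Those with the highest levels were Sec14l1 at 612 scaled reads in 2RA cells, Itm2c at 489, Bmp2k at 460.1 and Gm7308 at 414. Gm7308 and Gm15720 are annotated as processed pseudogenes, and their counts are uncertain where reads could come from a near-identical gene.

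Markers of other blood cells were read beside the members. As a background, 65.1%, 45.2% and 57.9% of all listed genes were higher in 2RA cells than in the control, WT cells and V205M cells. Of 28 lymphocyte markers only Blnk was listed in any table, so the other markers on this list gave no level. The members Lat, Btk, Ptprc and Lcp2 are not on this list. Of 38 markers of neutrophils and macrophages 4 were listed, and 2RA cells were higher than the control in Fgl2, Laptm5 and Itgb2. The summed level of the 3 with 4 levels was 1312 in the control, 879.9 in WT cells, 3975 in 2RA cells and 1230.1 in V205M cells. The rule removed several megakaryocyte genes by name, and no member is on that list of 29. The 6 of them with 4 levels summed to 630.3, 3604, 6453 and 1036 in the same order, and 7 genes were listed as higher and 0 as lower in 2RA cells than in the control. Of 25 mast cell markers 2 were higher and 5 lower than in the control, with sums of 8168, 546, 4005 and 4768. Against WT cells 7 of these markers were higher and 0 lower in 2RA cells, and against V205M cells 2 were higher and 5 lower. The sums of the megakaryocyte and myeloid markers were highest in 2RA cells, but the values that the rule used set this in part. Plek, Fli1, Meis1 and P2rx1, which are 4 of the 6 megakaryocyte genes summed, met its fold limit before they were left out by name. Most of the megakaryocyte sum in 2RA cells was Fermt3, at 4204, against 154 in the control and 857 in V205M cells. Fermt3 did not meet the fold limit and was not listed between 2RA and WT cells. The members Laptm5 and Fgl2 made up most of the myeloid sum. The part of these cell types in the members' levels was not tested. The red cell list, with 0 higher and 25 lower in 2RA cells than in WT cells, had no member. Against the control 3 of its genes were higher and 8 lower, and against V205M cells 8 were higher and 4 lower. Hbb-b1 stood at 2342 in 2RA cells and 238 in the control, whereas Hba-a1 stood at 32.9 and 1291. In a list of 49 blood transcription factors, Elf1 was the only member, and 2RA cells were listed as higher in 5 and lower in 1 against the control, in 7 and 3 against WT cells, and in 8 and 2 against V205M cells. Of 24 stem and progenitor genes, without a member, 4 were listed as higher and 0 as lower than in the control. Their sum was also highest in 2RA cells, at 13182, against 5120.5 in the control, 5029 in WT cells and 9880.4 in V205M cells. The values that the rule used set this in part too. Csf2rb2, at 3306 in 2RA cells, and Meis1 met its limits before they were left out by name. The largest part of the sum in 2RA cells was Csf2rb, at 5095, which did not meet the fold limit. The lists of eosinophil and basophil, endothelial, stromal and interferon genes held no member, and 1, 1, 0 and 0 of their genes were listed as higher than in the control. The 2 eosinophil and basophil genes with 4 levels summed to 160.0 in 2RA cells, 89 in the control, 105 in WT cells and 52.8 in V205M cells.

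Of the 100 members 97 could be placed on GRCm38, and 94 of these are annotated as protein coding. Fgl2 lies on chromosome 5 at 21372642 to 21378374, Blnk on chromosome 19 at 40928927 to 40994535, Hoxc10 on chromosome 15 at 102966796 to 102971893, Ptprc on chromosome 1 at 138062861 to 138175708 and Gsn on chromosome 2 at 35256380 to 35307892. Counts were taken over whole genes, and 38 members share exon bases with another gene, 32 of them with a gene on the opposite strand, none over more than 20% of their exon bases. The sources used here do not say whether counting used strand. Chromosome 4 held 16 members, which is 18.2% of its 88 placed genes with 4 levels, against 8.57% (97 of 1132) over all chromosomes. Among them are Lyn, Capzb, Laptm5, Cnr2, Pafah2, Tgfbr1, Tln1, Cap1, Ppt1 and Ski. Between 120 and 140 Mb of chromosome 4 there were 10 members among 50 listed genes. In this window 25 listed genes were higher and 2 lower in 2RA cells than in the control, 18 and 3 against WT cells, and 21 and 0 against V205M cells. With the 10 members left out, 15 were higher and 2 lower, 8 and 3, and 11 and 0. Over all listed genes 65.1%, 45.2% and 57.9% were higher in these comparisons. This window comes from a scan of all chromosomes in steps of 20 Mb, and its difference from the rest was not tested. Some members are near neighbours. Fes and Furin start 11 kb apart on chromosome 7, Ppt1 and Cap1 23 kb apart on chromosome 4, Rnf19b and Fndc5 79 kb apart on chromosome 4, and Lcp2 and Dock2 180 kb apart on chromosome 11. Ttc7b and 9030617O03Rik start 478 kb apart on chromosome 12 with no other listed gene between them. In all 23 of 97 placed members (23.7%) had another member within 1 Mb, compared with 24.3% of the genes highest in V205M cells, 41.7% of those highest in WT cells and 11.5% of those highest in the control. The last 3 sets had 70, 216 and 78 placed genes. Such a share rises with the size of the set, so these shares cannot be compared directly.

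**Figure D5:**
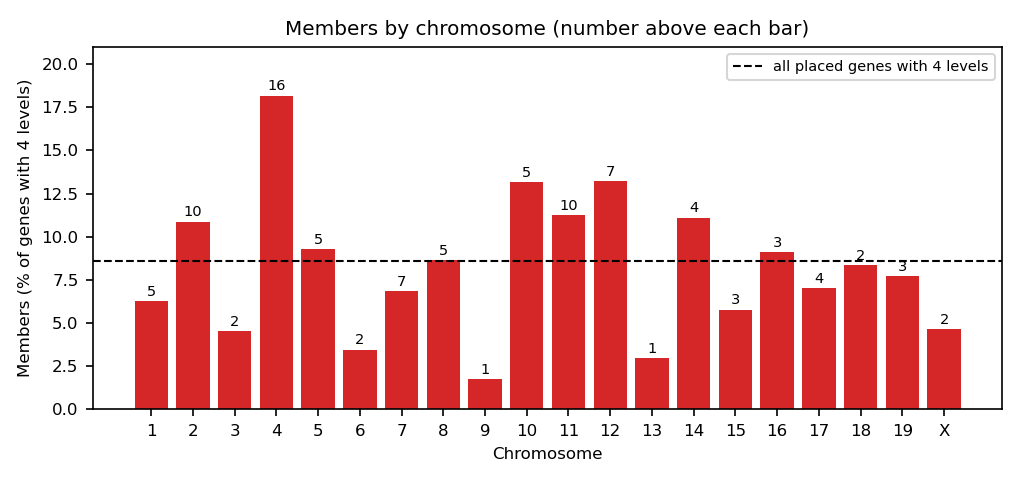
Members as a percentage of the placed genes with 4 levels on each chromosome (bars from 0, number of members above each bar), with a dashed line at the 8.57% of all placed genes. Chromosome 4 stands highest with 16 members and 18.2%, and chromosome 9 lowest with 1 member.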

How the data were processed

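RNA-seq was read from the authors' 6 deposited pairwise tables. Per the file headers and values, the deposited signal of a gene is a group's read count divided by a size factor, averaged by the authors over count columns where a group has 2, beside the fold (ratio of 2 groups), its log2 and the authors' p-value with an adjusted p-value. Only genes whose adjusted p-value lies under 0.01 and whose change exceeds 2-fold were deposited, and 12931 tested genes follow from the adjustment in 5 tables. In the table of 2RA against V205M, whose deposited p-values are rounded, the smallest p-value gives 12905, and 12931 was used there too. The submitters' processing notes name the mm10 build and TopHat, Cuffdiff, Cufflinks and deepTools, and the tool behind these tables is not given in the sources. Each deposited signal value was solved as a whole number of reads over 1 or 2 size factors (tolerance 1e-06), which succeeded for all values. The groups with 2 count columns have 1 sample in the labels, so the authors' p-values may treat runs of 1 sample as replicates.

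The members, the 16 gene lists and the 10 roles were chosen with earlier results of these data known. Levels are given for the 25 members with the widest gap, those at the limits and up to 4 of the highest members of each role. For 1 member of these no result is reported here. A few further members (Spns2, Lat, Il4ra, Dock2 and Nin, for instance) were added after their values were seen. Log2 differences used a pseudocount of 1. Intervals are exact binomial at 95% on pooled reads, while a fold averages the 2 columns of a group equally, so an interval need not centre on its fold. The precision is set by the reads per column over listed genes, from 276064 to 2178397. Names were matched to RefSeq GRCm38.p6, 89 by symbol and 8 by an older symbol, with 1 swapped name and 2 unmatched, and placed by GENCODE M21. Scripts used Python 3.11.15, numpy 2.4.6, scipy 1.17.1 and matplotlib 3.10.9, and were tested on simulated data. edgeR 4.0.16 in R 4.3.3, a quasi-likelihood fit on the recovered counts of the 1157 genes, served only as an alternative. Other alternatives were the level minimum, the fold limit, median ratio scaling, the pseudocount, single count columns and the strand of the motif search.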

Additional observations from a re-analysis of the deposited data

How the results depend on the processing

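The number of members was 105 and 83 with a level minimum of 25 and 100, 135 with a 1.5-fold limit, 89 when all 3 tables had to list a gene, and 95 to 103 with single count columns. It moved to 51 with a 3-fold limit and to 65 with median ratio scaling, 63 of them shared with the 100. Median ratio scaling left 2RA cells the highest group in all 100 members and 1.5-fold or more above each other group in 89. Under it the members' median log2 difference of 2RA cells moved to 1.41 against the control, 2.48 against WT cells and 2.58 against V205M cells, and the medians of WT cells and V205M cells against the control to -0.97 and -0.57. The median of V205M cells against WT cells changed sign, from -0.07 to 0.42. It divided the levels by factors of -0.39 in the control, 0.38 in WT, 0.19 in 2RA and -0.14 in V205M cells on the log2 scale, which shift every gene alike. Against V205M cells, where several members have few reads, the median moved to 2.60 with a pseudocount of 5 and to 2.76 with the first V205M column alone. The edgeR quasi-likelihood fit, whose spread comes only from the columns of the control and V205M cells, called 448, 330 and 334 of 1157 fitted genes higher in 2RA cells against the control, WT cells and V205M cells. Of the members 98, 100 and 100 were among them, which the choice of the members on the same counts fixed beforehand and which supports nothing. On the strand of the gene alone, a GATA word lay in 12.5% of member promoters (17% of all promoters) and GAGGAA in 15.2% (15.6%), and TGTGGT in 3.57% (8.99%). No paired analysis was possible because each group is 1 sample and the labels carry no replicate numbers. Leaving out a replicate was not possible for the same reason. Genes that no table lists have no level here, and members near 1 read limit what a ratio can show.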

Other observations

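Values of neighbouring genes that belong to no comparison of the members are given here. Between 60 and 120 Mb of chromosome 12, where 5 members lie, including Ttc7b and 9030617O03Rik, listed genes were higher rather than lower than the G1E control in both mutant groups. With the members left out, 2RA cells were higher in 10 and lower in 1 between 60 and 80 Mb, higher in 12 and lower in 4 between 80 and 100 Mb, and higher in 15 and lower in 1 from 100 Mb. V205M cells were higher in 12 and lower in 1, higher in 12 and lower in 2, and higher in 18 and lower in 2. WT cells were higher in 4 and lower in 7, higher in 4 and lower in 8, and higher in 10 and lower in 5 in the same windows. The 2 mutant comparisons share the control sample. Over all listed genes 65.1% were higher in 2RA cells, 59.3% in V205M cells and 62.7% in WT cells than in the control. The windows come from a scan of all chromosomes in steps of 20 Mb, and their difference from the rest was not tested.

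The 8 genes that the rule left out by name also met its limits on level and fold. Srgn, the proteoglycan core protein of granules, stood at 1077 scaled reads in 2RA cells, 69.6 in the control, 215 in WT cells and 4.15 in V205M cells. Plek, the main kinase C substrate of platelets, stood at 1319, 237, 368 and 18.7 in the same order. In both genes V205M cells were far below the other 3 groups. Ccnd1, a cyclin of early cell cycle progression, was 17.4-fold above its highest other group, the control, with an interval of 6.79 to 52.5. Csf2rb2, a cytokine receptor chain with a close paralog in Csf2rb, stood at 3306 in 2RA cells and 1015 in V205M cells.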
